A study of Mus musculus with 12 samples.

Results

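Nupr1 and 9 other genes of the ATF4 stress response were followed in sorted nephron progenitor cells of the fetal mouse kidney: Atf4, Ddit3, Trib3, Asns, Psat1, Phgdh, Shmt2, Chac1 and Sesn2. They were matched by gene symbol, which found all 10 genes among the 49164 entries of the count table that hold counts. A second entry that also carries the Ddit3 symbol, ENSMUSG00000116429, had 0 counts in all 12 libraries. The set was chosen by the counts themselves, with the difference between treated and normal litters already in view: Nupr1 was included because it was higher in treated litters, and the other genes because the pathway as a whole was not. Levels and fold changes against normal litters are therefore given as a description, without a test. The contrast between both treated arms was not used in that choice, and it was tested.

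Dams were of the outbred CD1 strain, sires carried a Six2-EGFP/Cre transgene, and the heterozygous embryos were taken at embryonic day 17.5. The Six2 promoter drives the transgene in the cap mesenchyme, the self-renewing pool from which nephrons form, and GFP-positive cells of all kidneys of a litter were sorted and pooled. From 50000 to 100000 cells per litter, a stranded total RNA library was made and read in 1 direction for 100 cycles, so a library stands for 1 litter, and the 12 litters fall into arms K, BHB and normal with 4 each. The series asks how maternal ketosis affects development of the fetal kidney. All 3 arms carried the same transgene. The normal arm had a control diet from conception on. The treated arms had a ketogenic diet or a control diet with the ketone body β-hydroxybutyrate, but the labels contradict each other on which arm had which: libraries titled K have the supplement in their treatment field, and libraries titled BHB have the ketogenic diet there. K and BHB are used here as names of library sets. The labels also describe calorie restriction, which is not given for any of the 12.

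Cells short of amino acids, or with misfolded protein in the endoplasmic reticulum, phosphorylate the translation factor eIF2alpha. This lowers protein synthesis in general but raises translation of the Atf4 mRNA, whose upstream reading frames hold it back in unstressed cells, so the Atf4 mRNA level does not report the amount of ATF4 protein. ATF4 is a basic leucine zipper transcription factor. With C/EBP partners it binds short composite sites and activates genes for amino acid synthesis and import, tRNA charging and, under lasting stress, growth arrest and death. Nupr1, a small disordered chromatin protein that is induced by many stresses, is one of its known targets.

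The composite site is often written TGATGNAA, and this motif was searched on both strands of promoter windows of 300 bases, from 250 bases before to 50 after the RefSeq gene start (mouse build GRCm38.p6). All 10 genes had a window, and 4 of them held the motif: Nupr1, Chac1, Asns and Trib3. Of all 27025 mouse genes with a window, 4.51% held it, and of all 32851 windows, 3.97%. The stretches below are printed because they hold these 4 matches. They come from RefSeq and run 5′ to 3′ on the strand of the gene, with the match in capitals. Nupr1 lies at chr7:126625527-126625626 (minus strand), Chac1 at chr2:119351003-119351102 (plus strand), Asns at chr6:7693210-7693309 (minus strand) and Trib3 at chr2:152344029-152344056 (minus strand).
Nupr1: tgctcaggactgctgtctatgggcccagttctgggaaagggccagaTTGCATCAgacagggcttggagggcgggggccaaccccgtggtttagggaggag
Chac1: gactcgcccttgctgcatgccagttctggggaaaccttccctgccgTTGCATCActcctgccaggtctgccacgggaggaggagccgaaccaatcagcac
Asns: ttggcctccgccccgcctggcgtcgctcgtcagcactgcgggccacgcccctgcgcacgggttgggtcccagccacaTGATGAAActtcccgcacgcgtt
Trib3: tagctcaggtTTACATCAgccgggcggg

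In Nupr1 and Chac1 the match reads TTGCATCA on the gene's strand, which is TGATGCAA on the other strand. It begins 110 bases before the start in Nupr1 and 193 bases before it in Chac1. The Asns match, TGATGAAA, is on the gene's own strand and begins 23 bases before the start. That of Trib3, TTACATCA, begins 15 bases after the start. The exact 8 letters of Nupr1 and Chac1 occurred, on either strand, in 0.895% of all windows. The windows of Atf4, Ddit3, Psat1, Phgdh, Shmt2 and Sesn2 held no match, which says only that these letters are not in these 300 bases.

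The libraries had total counts of 7532784 to 12276119, and 17697 genes passed a filter on low counts. Among them were 8 of the 10 genes, all but Trib3 and Chac1. Levels are CPM, counts relative to library size, with TMM scaling, with the SD over the 4 litters of an arm, and differences are log2 fold changes ± SE from 1 edgeR model of all 12 libraries. No gene passed an adjusted p of 0.05 in K against normal, BHB against normal or K against BHB by edgeR's quasi-likelihood test, so the share called was 0% in each contrast. At an unadjusted p under 0.05, edgeR counted 3502, 2089 and 1456 genes in these contrasts, and DESeq2 called 296, 73 and 23 genes after adjustment. Same-numbered K and normal libraries deviated together (r = 0.11 to 0.46 over the 4 pairs), and an edgeR fit of these 2 arms with the replicate number as a block, added after the values were seen, called 391 genes in K against normal. The same block in a fit of all 12 libraries called 0. The mean log2 CPM of 12 nephron progenitor markers was 4.93 to 5.67 in K, 5.14 to 5.68 in BHB and 5.69 to 5.96 in normal libraries. Markers of other kidney and blood cells were highest in K 3, K 4, BHB 1 and BHB 2: their mean log2 CPM was 4.15 to 5.20 there, 3.15 to 3.54 in the other treated libraries and 2.06 to 3.19 in normal ones. In bulk RNA of sorted cells, fewer cells of a type and less RNA per cell cannot be told apart.

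Nupr1 (ENSMUSG00000030717) was low in all arms and higher in every treated litter than in any normal litter. Its level was 1.81, 3.49, 4.11 and 6.05 CPM in K 1 to 4 and 9.59, 2.51, 1.38 and 0.862 CPM in BHB 1 to 4, against 0.570, 0.196, 0.349 and 0.356 CPM in normal 1 to 4. The K and BHB ranges overlap each other, BHB 1 has the highest level of the 12 libraries, and the lowest treated litter, BHB 4, lies above the highest normal one. In counts, BHB 4 had 7 and normal 1 had 6. Over the whole table, 0.955% of the genes tested had all 8 treated litters above all 4 normal ones. That pattern is what placed Nupr1 in the set, so nothing is read from it.

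Arm means of Nupr1 were 3.86 ± 1.75 CPM in K, 3.58 ± 4.06 CPM in BHB and 0.367 ± 0.154 CPM in normal litters (SD, n = 4 each). The spread among BHB litters is larger than their mean. The log2 fold change was 3.34 ± 0.80 for K minus normal and 3.28 ± 0.80 for BHB minus normal. Counted from the most positive value down, these stood at rank 9 and rank 38 among the 17697 genes. These contrasts placed Nupr1 in the set, so nothing is read from the ranks. Both contrasts share the normal libraries, whose Nupr1 counts were 6, 2, 4 and 3 and summed to 15, against 150 in K and 162 in BHB. Divided by library sizes, these sums give a ratio of 10.4 for K over normal and 10.4 for BHB over normal.

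**Figure D1:**
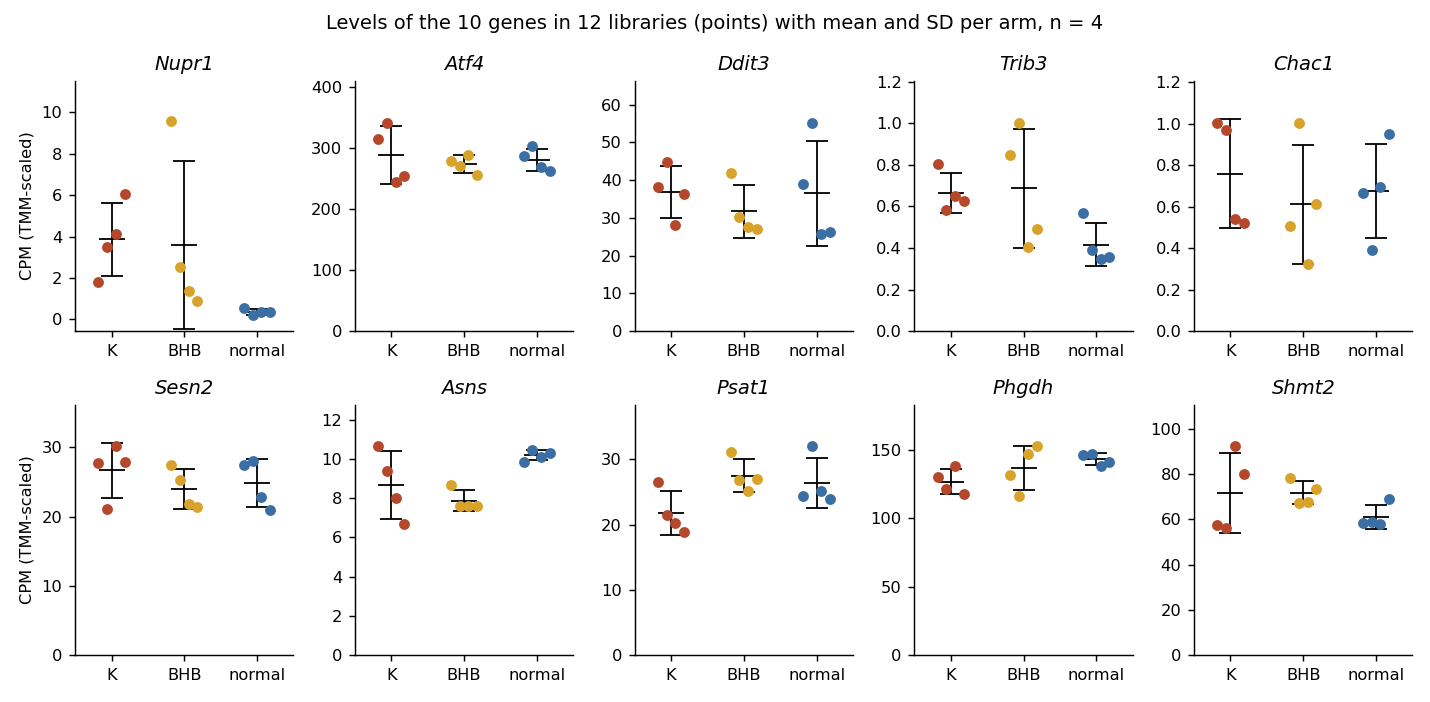
TMM-scaled CPM (vertical axes, 1 scale per gene) of the 10 genes in each library (points, replicates 1 to 4 from left to right within K, BHB and normal), with the arm mean and SD (black, n = 4). Nupr1 has all 8 treated points above the 4 normal ones, up to 9.59 CPM in BHB 1, and its SD bar in BHB reaches below 0; the arms of Atf4, Ddit3, Chac1 and Sesn2 overlap.

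K and BHB were not distinguished for Nupr1. The K minus BHB difference was 0.06 ± 0.62 on the log2 scale, with a 95% interval of -1.31 to 1.42 and an adjusted p of 0.989 by edgeR's quasi-likelihood test over all genes. The interval is wide: it holds a difference of more than 1 log2 unit in either direction. Leaving out K 3, K 4, BHB 1 and BHB 2, the difference was 1.18 ± 0.47 (adjusted p = 0.305), and leaving out BHB 1 alone it was 1.25 (adjusted p = 0.382). Over all edgeR alternatives the adjusted p lay between 0.305 and 1.

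Endothelial markers moved with Nupr1. The mean log2 CPM of 10 endothelium markers was 2.99, 2.47, 4.41 and 3.90 in K 1 to 4 and 4.95, 3.38, 2.31 and 0.931 in BHB 1 to 4, against 1.81, 0.734, 1.56 and 0.839 in normal 1 to 4. Within BHB the order of the litters was the same for these markers and for Nupr1. Podocyte, ureteric epithelium and erythroid markers had that BHB order too, with podocyte markers at 6.19, 4.99, 4.36 and 3.06 in BHB 1 to 4. Proximal tubule, loop of Henle and distal tubule, leukocyte and stroma markers did not. Podocyte markers were also higher in every K litter (4.379 to 5.803) than in any normal one (2.746 to 3.835). Within K the order differed between endothelium markers and Nupr1: K 2 has the lowest marker level of that arm and K 4 the highest Nupr1. The summed level of the 10 markers was 64.5 to 243 CPM in K, 20.7 to 352 CPM in BHB and 18.5 to 40.0 CPM in normal litters. All 10 were detected in every library, and all 10 had a positive fitted difference in K minus normal and in BHB minus normal. Pecam1, an adhesion molecule of endothelial junctions, averaged 21.4 ± 11.4 CPM in K, 20.1 ± 21.3 CPM in BHB and 4.77 ± 0.81 CPM in normal litters.

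BHB 4, with an endothelium level of 0.931, lay within the normal range of 0.734 to 1.81. Its Nupr1 level, 0.862 CPM, was above that of any normal library, but rests on 7 counts, against 6 in normal 1. BHB 4 has the highest leukocyte marker level, at a mean log2 CPM of 3.71. With the endothelium level as a covariate, a fit added after the values were seen, Nupr1 was 1.60 ± 0.53 in K minus normal and 1.42 ± 0.54 in BHB minus normal. With the mean over the markers of all 6 other cell types as the covariate it was 1.87 ± 0.75 and 1.86 ± 0.75. Without K 3, K 4, BHB 1 and BHB 2 it was 2.81 ± 0.46 and 1.63 ± 0.52. Direction was kept in each of these fits, and the size changed by more than 1.5 times in all but the K difference without the 4 libraries. The part of endothelial or leukocyte RNA in the Nupr1 difference was not tested.

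**Figure D2:**
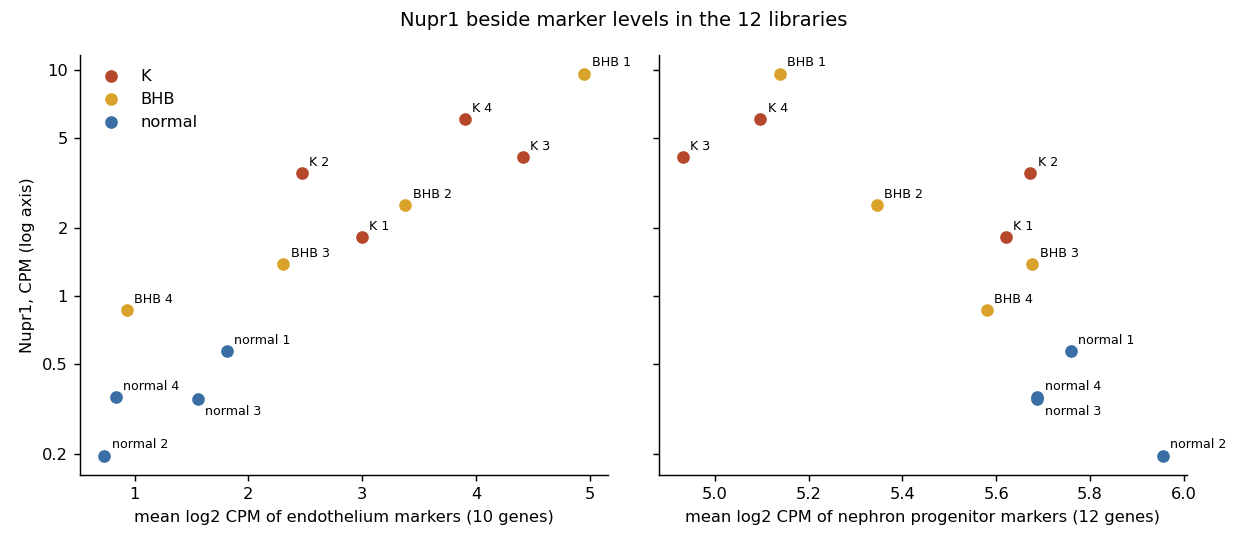
Nupr1 (vertical log axis, CPM) in each library against the mean log2 CPM of 10 endothelium markers (left) and 12 nephron progenitor markers (right), coloured by arm. BHB 1 is highest for Nupr1 and endothelium markers, at 9.59 CPM and 4.95, and BHB 4 lies above the 4 normal libraries in Nupr1 at a similar endothelium level. BHB 4 has 7 Nupr1 counts, against 6 in normal 1.

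The genes most like Nupr1 over the 12 libraries, by Pearson correlation of log2 CPM among 17696 genes, were Dusp1 (0.967), Ccm2l (0.964), Acvrl1 (0.963), Esam (0.953) and Mmp17 (0.948). These values are a description: the libraries form groups, and the correlations carry the marker differences given above. With each arm centred on its own mean, they were 0.907, 0.901, 0.953, 0.887 and 0.891 in the same order. Ccm2l was near the limit of detection, with 1 count in normal 1 and 0 in the other normal libraries. It had 12, 15, 23 and 12 counts in K 3, K 4, BHB 1 and BHB 2, and 3 to 6 in the other treated libraries. It passed the filter on low counts only through K 3, K 4, BHB 1 and BHB 2, so nothing is read from its place in this ranking. Acvrl1, a BMP receptor of endothelium, Esam, an endothelial adhesion protein, and Ccm2l are genes known from endothelial cells, and Esam also stands in the marker list. Dusp1, a phosphatase that inactivates MAP kinases, averaged 145 ± 25 CPM in K, 130 ± 55 CPM in BHB and 73.6 ± 6.5 CPM in normal litters. Mmp17, a membrane-anchored metalloproteinase, averaged 3.08 ± 0.43 CPM in K, 2.54 ± 0.98 CPM in BHB and 1.62 ± 0.09 CPM in normal litters.

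Among the other 9 genes the correlation with Nupr1 ran from -0.65 for Phgdh to 0.74 for Trib3, which had only 3 to 10 counts per library. The 5 genes above were picked as the highest, so the 9 are not set against them. The set was chosen by the contrast with normal litters, which these correlations carry. No arm-centred values were computed for the 9, so theirs are a description only. Shmt2 stood at 0.56, Sesn2 at 0.32, Ddit3 at 0.13, Chac1 at -0.01, Atf4 at -0.07, Psat1 at -0.33 and Asns at -0.58. By rank the correlation was 0.81 for Trib3, the gene closest to the order of libraries that Nupr1 has, and -0.68 for Phgdh, and 5 of the 9 Pearson values are negative.

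Atf4 (ENSMUSG00000042406), the transcription factor itself, differed little between arms in the main fit. Its level was 314.5, 341.8, 244.1 and 254.4 CPM in K 1 to 4 and 279.6, 271.5, 289.1 and 255.4 CPM in BHB 1 to 4, against 287.4, 303.0, 268.6 and 263.2 CPM in normal 1 to 4. The arms overlap, and K holds both the highest and the lowest litter. The fitted difference was 0.04 ± 0.10 in K minus normal and -0.01 ± 0.10 in BHB minus normal. Without K 3 and K 4, the pair of K litters with the lower levels, and BHB 1 and BHB 2, K minus normal was 0.23 ± 0.08. With the mean of other-cell markers as a covariate, K minus normal was 0.25 ± 0.09 and BHB minus normal 0.18 ± 0.09. With the endothelium level as the covariate these were 0.12 ± 0.13 and 0.06 ± 0.12. In the main fit, K minus BHB was 0.05 with a 95% interval of -0.17 to 0.27 (edgeR adjusted p = 0.927).

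Ddit3 (ENSMUSG00000025408) encodes CHOP, a transcription factor that ATF4 induces under lasting endoplasmic reticulum stress. Its level was 38.3, 44.8, 28.2 and 36.3 CPM in K 1 to 4 and 41.9, 30.3, 27.6 and 27.1 CPM in BHB 1 to 4, against 39.0, 55.2, 25.6 and 26.2 CPM in normal 1 to 4. Normal litters alone span the range of all 12. The fitted difference was 0.01 ± 0.25 in K minus normal and -0.18 ± 0.25 in BHB minus normal, and K minus BHB was 0.19 with an interval of -0.35 to 0.73 (edgeR adjusted p = 0.872). Ddit3 overlaps Mars1 and Gm4189 on the opposite strand. Whether the counting used strand is not given in the sources, so their reads may not have been told apart.

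Trib3 (ENSMUSG00000032715), a pseudokinase that ATF4 and CHOP induce and that holds their activity back, was near the limit of detection. It had 8, 6, 6 and 6 counts in K 1 to 4 and 10, 10, 5 and 4 counts in BHB 1 to 4, against 6, 4, 4 and 3 counts in normal 1 to 4. Scaled to library size, K litters had 0.582 to 0.804 CPM, BHB litters 0.405 to 1.00 CPM and normal litters 0.349 to 0.570 CPM. All K litters lie above all normal ones, by a margin smaller than 1 count between K 2 and normal 1. The ratio of summed counts per library size was 1.59 for K over normal and 1.64 for BHB over normal. For K over BHB it was 0.968, with an exact 95% interval of 0.548 to 1.70 that covers counting error only.

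Chac1 (ENSMUSG00000027313), an enzyme that degrades glutathione and is a sensitive ATF4 target, was as scarce. It had 10, 10, 5 and 5 counts in K 1 to 4 and 6, 10, 4 and 5 counts in BHB 1 to 4, against 7, 4, 8 and 8 counts in normal 1 to 4. The arms overlap. The ratio of summed counts per library size was 1.16 for K over normal and 0.892 for BHB over normal. For K over BHB it was 1.30, with an exact 95% interval of 0.737 to 2.30 that again covers counting error only.

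Sesn2 (ENSMUSG00000028893), a leucine-binding inhibitor of the growth kinase complex mTORC1, had 27.7, 21.0, 30.2 and 27.9 CPM in K 1 to 4 and 27.4, 25.3, 21.9 and 21.4 CPM in BHB 1 to 4, against 27.5, 28.1, 22.8 and 21.0 CPM in normal 1 to 4. All arms overlap. Differences were 0.10 ± 0.14 in K minus normal and -0.03 ± 0.14 in BHB minus normal. K minus BHB was 0.13 with an interval of -0.17 to 0.43 (edgeR adjusted p = 0.837). Sesn2 overlaps Gm12981 on the same strand, and reads could be shared between them.

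Asns (ENSMUSG00000029752), the asparagine synthetase, was lower in every BHB litter than in any normal litter. Its level was 10.7, 9.40, 8.00 and 6.68 CPM in K 1 to 4 and 8.66, 7.63, 7.61 and 7.63 CPM in BHB 1 to 4, against 9.87, 10.5, 10.1 and 10.3 CPM in normal 1 to 4. K litters spread from the highest to the lowest level of the 12, and 3 of the 4 lie below the normal range. The difference was -0.24 ± 0.14 in K minus normal and -0.35 ± 0.14 in BHB minus normal. With the mean of other-cell markers as a covariate these were -0.06 ± 0.19 and -0.20 ± 0.18. Of all genes tested, 5.77% had every BHB litter below every normal one. K minus BHB was 0.11 with an interval of -0.20 to 0.43 (edgeR adjusted p = 0.869).

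Serine is made from a glycolytic intermediate by Phgdh, Psat1 and Psph in turn. Phgdh (ENSMUSG00000053398) had 130, 121, 138.1 and 117 CPM in K 1 to 4 and 132, 116, 147 and 152 CPM in BHB 1 to 4, against 146, 147, 138.1 and 141 CPM in normal 1 to 4. All K litters lie below all normal ones, though K 3 and normal 3 are equal at the printed precision. The difference was -0.18 ± 0.09 in K minus normal and -0.04 ± 0.09 in BHB minus normal. With the mean of other-cell markers as a covariate these were -0.11 ± 0.11 and 0.01 ± 0.10, the BHB value with its sign turned. Of all genes tested, 4.75% had every K litter below every normal one. K minus BHB was -0.14 with an interval of -0.33 to 0.05 (edgeR adjusted p = 0.717). The pseudogene Phgdh-ps1 had at most 8 counts in any library, against 1125 to 1816 counts of Phgdh, so few reads were assigned to the copy.

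Psat1 (ENSMUSG00000024640) had the largest K minus BHB difference of the 8 genes, by its size. Its level was 26.5, 21.5, 20.2 and 18.9 CPM in K 1 to 4 and 31.1, 26.8, 25.1 and 27.0 CPM in BHB 1 to 4, against 24.4, 32.0, 25.2 and 24.0 CPM in normal 1 to 4. In K, 3 of the 4 litters lie below every BHB and every normal litter, and K 1 lies among them. K minus BHB was -0.36 ± 0.13, with an interval of -0.65 to -0.07, which did not pass the threshold after adjustment over all genes (edgeR unadjusted p = 0.0176, adjusted p = 0.546). The difference was -0.28 ± 0.13 in K minus normal and 0.08 ± 0.13 in BHB minus normal. Without K 3, K 4, BHB 1 and BHB 2, K minus BHB was -0.14 ± 0.16. Psat1 overlaps Gm3329 on the opposite strand, which had 0 counts in every library.

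Shmt2 (ENSMUSG00000025403), the mitochondrial enzyme that splits serine into glycine and a one-carbon unit, had 57.6, 56.0, 92.3 and 80.2 CPM in K 1 to 4 and 78.2, 67.3, 67.9 and 73.6 CPM in BHB 1 to 4, against 58.6, 58.7, 57.9 and 68.9 CPM in normal 1 to 4. K litters divide into K 3 and K 4, above every other library, and K 1 and K 2, below every other library. K 3 and K 4 are also the K litters with the higher markers of other cells. The difference was 0.22 ± 0.15 in K minus normal and 0.26 ± 0.15 in BHB minus normal. Without K 3, K 4, BHB 1 and BHB 2 the sign of the K difference turned, to -0.10 ± 0.09, while that of BHB was 0.24 ± 0.09. With the mean of other-cell markers as a covariate both signs turned, to -0.15 ± 0.14 in K minus normal and -0.02 ± 0.12 in BHB minus normal. In the main fit, K minus BHB was -0.03 with an interval of -0.35 to 0.29 (edgeR adjusted p = 0.971). Shmt2 overlaps Ndufa4l2 on the opposite strand, which had at most 42 counts in any library.

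**Figure D3:**
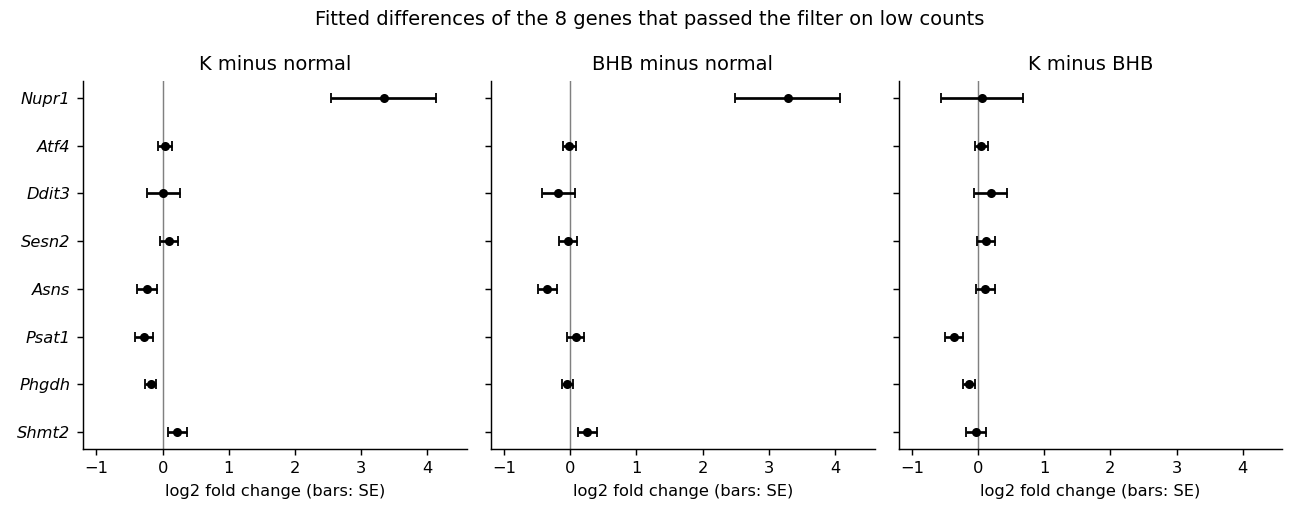
Fitted log2 fold change (horizontal axes) with its SE for the 8 genes that passed the filter, in K minus normal, BHB minus normal and K minus BHB. Nupr1 lies at 3.34 and 3.28 against normal and at 0.06 between both treated arms; the other 7 genes lie between -0.36 and 0.26 in all 3 panels.

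Of the 9 genes other than Nupr1, 7 passed the filter. Their median difference was 0.01 in K minus normal, with 4 positive and 3 negative, and -0.03 in BHB minus normal, with 2 positive and 5 negative. Over all genes tested the medians were 0.005 and 0.016. In K minus BHB their median was 0.05, against 0.011 over all genes, and none of the 7 passed the threshold. Of all genes tested, 5.11% had every K litter above every normal one and 3.45% every BHB litter above every normal one. Among the 8 genes that passed the filter, Nupr1 did so in both arms, and it was the only one in either; since these contrasts chose the set, nothing is read from that count.

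A further 81 genes of the pathway were described in 8 lists, and 80 of them passed the filter. None passed the threshold in any of the 3 contrasts. Over all genes tested, 50.6% had a positive difference in K minus normal and 52.8% in BHB minus normal. Genes are named from each list by their K minus BHB p, or because an arm and the normal litters do not overlap. Of all genes tested, 5.11% had every K litter above every normal one and 4.75% every K litter below. For BHB these shares were 3.45% and 5.77%. All 8 treated litters lay above all 4 normal ones in 0.955%, and the share with all of them below was not counted.

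The kinases of eIF2alpha, its phosphatase subunits, eIF2alpha itself and the regulator Impact had a median difference of -0.01 in K minus normal and -0.07 in BHB minus normal (8 of 8 genes passed the filter). Ppp1r15a, the stress-induced phosphatase subunit that ATF4 signalling switches on, averaged 256 ± 26 CPM in K, 223 ± 59 CPM in BHB and 184 ± 21 CPM in normal litters, and its K range does not overlap normal. Its log2 difference in K minus normal was 0.47 ± 0.16, and it was 0.22 ± 0.19 with the marker score of other cells (their mean over 6 cell types) as a covariate and 0.09 ± 0.13 with the endothelium level. Ppp1r15b, the constitutive subunit, was at 144 ± 8 CPM in K, 126 ± 10 CPM in BHB and 139.5 ± 12.3 CPM in normal litters. Its K minus BHB difference of 0.17 ± 0.08 had an edgeR adjusted p of 0.603. Eif2ak2, the kinase that senses double-stranded RNA, had a K minus BHB difference of 0.24 ± 0.16 (edgeR adjusted p = 0.738). Eif2s1, which is eIF2alpha, and Impact, an inhibitor of the amino acid sensing kinase, were lower in every BHB litter than in any normal one, by -0.17 ± 0.09 and -0.13 ± 0.07. With the marker score as a covariate these were 0.03 ± 0.07, with the sign turned, and -0.04 ± 0.08.

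The transcription factors that pair with ATF4 or stand beside it had the highest list median, 0.54 in K minus normal and 0.80 in BHB minus normal, with 4 of 6 positive in each. Leaving those 4 libraries with the highest marker means (K 3, K 4, BHB 1, BHB 2) out, the medians were -0.04 and 0.08, with 3 of 6 positive in each. Cebpb, a partner also active in inflammation, averaged 28.2 ± 9.3 CPM in K, 27.9 ± 16.2 CPM in BHB and 13.9 ± 2.0 CPM in normal litters, with no overlap of K and normal. Its K minus normal difference of 1.01 ± 0.37 was 0.54 ± 0.24 without the 4 libraries, 0.22 ± 0.42 with the marker score and 0.34 ± 0.40 with the endothelium level. Atf3, a stress factor that is also an immediate-early gene of cell dissociation, ranged from 60.6 to 233 CPM in K and from 37.6 to 375 CPM in BHB, against 45.4 to 85.7 CPM in normal litters. Its K minus BHB difference of -0.21 ± 0.68 (edgeR adjusted p = 0.959) turned to 0.83 ± 0.33 without those 4 libraries. Cebpg, a dimer partner of ATF4 at the composite site, went the other way. It was lower in every BHB litter than in any normal one, as were 5.77% of all genes tested. Its level was 41.0 ± 4.1 CPM in K, 38.3 ± 4.6 CPM in BHB and 49.6 ± 3.0 CPM in normal litters. With the marker score, its BHB minus normal difference went from -0.35 ± 0.10 to -0.23 ± 0.11. In K minus normal it went from -0.28 ± 0.10 to -0.14 ± 0.12. Jdp2, a repressor of related leucine zipper factors, had a K minus BHB difference of -0.50 ± 0.28 (edgeR adjusted p = 0.678).

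Amino acid transporters had medians of 0.07 in K minus normal and 0.05 in BHB minus normal (10 of 10 passed the filter). Slc3a2 is the heavy chain that the large neutral amino acid and cystine transporters share. It was higher in every treated litter than in any normal one, as were 0.955% of all genes tested. Its level was 113 ± 32 CPM in K, 95.1 ± 9.0 CPM in BHB and 75.3 ± 4.6 CPM in normal litters. Without K 3, K 4, BHB 1 and BHB 2 its difference was 0.21 ± 0.08 in K minus normal, against 0.58 ± 0.16 with them, and 0.26 ± 0.08 in BHB minus normal, against 0.36 ± 0.16 with them. The marker score as a covariate left 0.11 ± 0.12 in K and 0.002 in BHB. Its partner Slc7a5, which carries leucine, averaged 44.1 ± 3.9 CPM in K, 37.5 ± 2.8 CPM in BHB and 41.7 ± 4.1 CPM in normal litters. In Slc1a4, a carrier of serine and alanine, all K litters were below all normal litters, at 9.55 ± 2.76 CPM in K, 13.0 ± 1.8 CPM in BHB and 14.3 ± 1.1 CPM in normal litters. Its K minus normal difference of -0.58 ± 0.19 came to -0.26 ± 0.15 without the 4 libraries, and to -0.12 ± 0.16 with the marker score. In K minus BHB the log2 difference was 0.21 ± 0.09 for Slc7a5, -0.47 ± 0.19 for Slc1a4 and -0.43 ± 0.19 for the glycine carrier Slc6a9, with edgeR adjusted p of 0.601, 0.570 and 0.603.

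Cytosolic tRNA synthetases, which load amino acids onto tRNA and are classical ATF4 targets, had small negative differences. Their median was -0.16 in K minus normal, with 11 of 12 negative, and -0.09 in BHB minus normal, with 10 of 12 negative. Without K 3, K 4, BHB 1 and BHB 2 these counts were 11 of 12 and 6 of 12. Over all genes tested with every library, 50.6% were positive in K minus normal and 52.8% in BHB minus normal. Tars, which loads threonine, was lower in every treated litter than in any normal one, at 84.0 ± 7.5 CPM in K, 84.8 ± 3.5 CPM in BHB and 97.8 ± 4.0 CPM in normal litters. For Cars, Mars1 and Yars, which load cysteine, methionine and tyrosine, all K litters were below all normal litters, with differences of -0.28 ± 0.10, -0.23 ± 0.09 and -0.17 ± 0.07. Eprs, for glutamate and proline, was lower in every BHB litter, by -0.14 ± 0.07. Every K litter lay below every normal one in 4.75% of all genes tested, and every BHB litter in 5.77%. The share of genes with both, as in Tars, was not counted. With the marker score as a covariate, K minus normal was -0.07 for Tars, -0.06 for Cars, -0.22 for Mars1 and -0.06 for Yars, and BHB minus normal was -0.06 for Tars and -0.06 for Eprs. In K minus BHB, Aars, for alanine, was at -0.20 ± 0.08 (edgeR adjusted p = 0.559). Only 8 of the 12 synthetase genes were matched to a RefSeq window. The promoter motif stood in 5 of these 8 (62.5%), Tars, Yars and Aars among them, against 4.51% of all genes with a window. This was the highest share of any list. It was 40% in the partner factors, 37.5% in the serine, proline and one-carbon enzymes and 28.6% in the transporters. Other ATF4 targets had 22.2%, the XBP1 and ATF6 arms 7.14%, and the eIF2alpha and mitochondrial proteostasis lists 0%.

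Enzymes of serine, proline and one-carbon metabolism outside the 10 genes had medians of 0.07 in both contrasts with normal, with 6 of 10 positive in each. Aldh18a1, which begins proline synthesis, averaged 35.8 ± 3.1 CPM in K, 43.5 ± 6.2 CPM in BHB and 38.0 ± 2.1 CPM in normal litters, with a K minus BHB difference of -0.31 ± 0.10 (edgeR adjusted p = 0.535). Psph, the enzyme after Psat1 in serine synthesis, averaged 11.5 ± 3.8 CPM in K, 14.4 ± 2.7 CPM in BHB and 10.4 ± 1.4 CPM in normal litters. Its K minus BHB difference was -0.35 ± 0.21 (edgeR adjusted p = 0.698). Aldh1l2, a mitochondrial folate enzyme, was at 0.66 ± 0.35 in K minus BHB (edgeR adjusted p = 0.649), and at -0.17 without the 4 libraries.

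Other ATF4 targets had medians of 0.29 in K minus normal and 0.22 in BHB minus normal, with 6 of 9 and 7 of 9 positive. Without the 4 libraries the medians were 0.13 and 0.05. Vldlr, a lipoprotein receptor, was higher in every treated litter than in any normal one, as were 0.955% of all genes tested. Its level was 113 ± 56 CPM in K, 92.1 ± 34.1 CPM in BHB and 50.5 ± 11.5 CPM in normal litters. Its difference was 1.15 ± 0.37 in K minus normal and 0.89 ± 0.37 in BHB minus normal, 0.36 ± 0.19 in each without the 4 libraries, and -0.07 ± 0.16 and -0.04 ± 0.15, with the sign turned, with the marker score as a covariate. Ero1a, which drives disulfide formation in the endoplasmic reticulum, had all K litters above all normal litters, at 49.97 ± 7.9 CPM in K, 37.6 ± 12.8 CPM in BHB and 33.1 ± 5.8 CPM in normal litters. Its K minus normal difference of 0.59 ± 0.22 was 0.39 ± 0.14 without the 4 libraries, 0.04 ± 0.16 with the marker score and 0.03 ± 0.16 with the endothelium level. Stc2, a secreted glycoprotein, averaged 9.56 ± 2.96 CPM in K, 8.09 ± 2.80 CPM in BHB and 4.67 ± 1.04 CPM in normal litters (K minus normal 1.03 ± 0.29, or 0.44 ± 0.30 with the marker score), and its K and normal ranges touch at 5.93 CPM. Gdf15, a stress cytokine that is often read as a marker of this response, was at 2.29 ± 1.44 CPM in K, 2.98 ± 1.27 CPM in BHB and 2.27 ± 0.78 CPM in normal litters.

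Genes of the XBP1 and ATF6 arms of the unfolded protein response, which run beside ATF4, had medians of -0.02 and -0.01 against normal (17 of 17 passed the filter). Ern1, the sensor that splices Xbp1 mRNA, and Sdf2l1, a chaperone component, had all K litters below all normal litters, with differences of -0.15 ± 0.08 and -0.45 ± 0.16. These were -0.24 ± 0.11 and -0.26 ± 0.20 with the marker score as a covariate. In K minus BHB the co-chaperone Dnajb9 was at 0.28 ± 0.13, Sdf2l1 at -0.34 ± 0.16 and the chaperone Hyou1 at -0.20 ± 0.09, with edgeR adjusted p of 0.603, 0.603 and 0.609. Mitochondrial proteostasis genes had medians of -0.01 and -0.03. Hspd1, the mitochondrial chaperonin, was lower in every BHB litter than in any normal one, at 430.2 ± 50.5 CPM in K, 352 ± 22 CPM in BHB and 445 ± 53 CPM in normal litters. Its BHB minus normal difference was -0.32 ± 0.10, or -0.16 ± 0.10 with the marker score, and its K minus BHB difference was 0.26 ± 0.10 (edgeR adjusted p = 0.559). The inner membrane protease Yme1l1 was lower in every BHB litter, by -0.09 ± 0.07 (0.03 ± 0.07, with the sign turned, with the marker score), and the matrix protease Clpp was at 0.07 ± 0.11 in K minus BHB (edgeR adjusted p = 0.890).

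**Figure D4:**
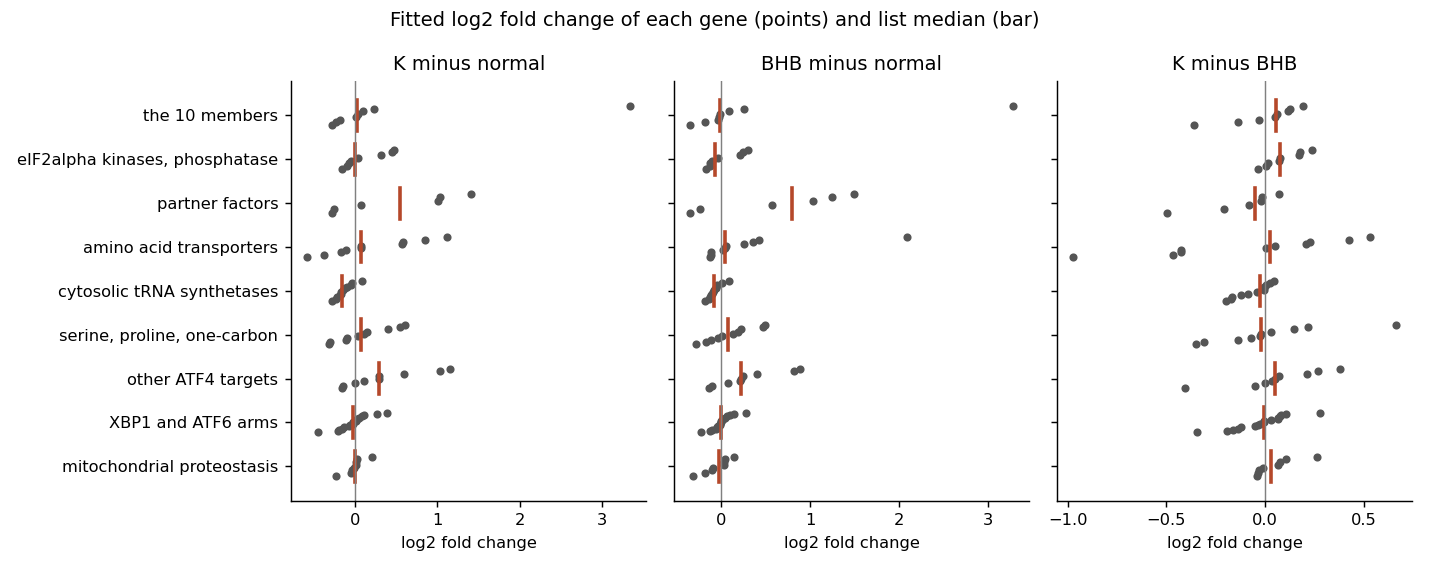
Fitted log2 fold change (horizontal axes, a separate scale per panel) of each gene that passed the filter (points) in 9 lists, with the list median (bar), for K minus normal, BHB minus normal and K minus BHB. Nupr1 is the rightmost point of the top list in the first 2 panels; the list of partner factors has the highest median against normal, at 0.54 and 0.80.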

How the data were processed

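RNA was sequenced from sorted cells of 12 litters, and grouping follows the library titles. A single table that the authors deposited holds raw counts per Ensembl gene and a normalized signal, the count divided by a size factor per library; the deposited signal was not used here. HTSeq 2.01, TopHat2 2.1.1, DESeq2 1.36.0 and cutadapt 2.10 are named, without roles, per the submitters' processing notes. Not given in the sources used here are the genome build, the annotation and any use of strand. Of 55414 entries, 6250 have blank counts and 49164 were used; 757 without a symbol of their own stayed under their Ensembl IDs. The number of sample columns with no matching label was 0.

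In R 4.3.3, edgeR 4.0.16 kept genes with filterByExpr (a count of about 10 in 4 libraries, a total of 15), scaled with TMM, and fitted 1 robust quasi-likelihood model with a mean per arm (9 residual degrees of freedom). P-values were Benjamini-Hochberg adjusted over all 17697 genes, with a threshold of 0.05. Log2 CPM used a prior count of 2. Ratios of summed counts between K and BHB have exact 95% intervals. The code was tested on simulated counts. DESeq2 1.42.0 was an alternative test, beside other scaling, no filter, no robust option, a replicate block, marker covariates and libraries left out. Each library is 1 litter, so litters are the replicates.

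The genes, lists and tests were chosen with earlier results of these data known. Named genes are all 10 genes, from each other list the 3 with the smallest K minus BHB p and up to 4 per arm whose libraries do not overlap normal, and the 5 most like Nupr1. Same-numbered libraries of different arms were checked for pairing: their deviations from the arm means correlated at 0.11 to 0.46 between K and normal, at -0.26 to 0.10 between BHB and normal and at -0.44 to -0.22 between K and BHB. The labels give the numbers no shared litter, batch or day. Promoter sequences and overlapping genes come from RefSeq and GENCODE for GRCm38, used for names and sequence only.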

Additional observations from a re-analysis of the deposited data

Results flagged for a closer look

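In 144 sets of 4 libraries (48 genes in 3 arms), 8 held a litter far from the other 3 by Dixon's test at its 95% level; chance alone flags about 1 set in 20. Among the genes the set was built from, Asns was at 8.66 CPM in BHB 1, against 7.61 to 7.63 CPM in the other BHB litters. Psat1 was at 32.0 CPM in normal 2 (23.9 to 25.2 CPM in the others), and Shmt2 at 68.9 CPM in normal 4 (57.9 to 58.7 CPM).

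Normal 4 was also apart for Slc3a2, at 82.2 CPM (72.6 to 73.2 CPM in the others), for Slc7a5, at 35.6 CPM (43.4 to 44.2 CPM), and for Aars, at 114.7 CPM (139.9 to 143.7 CPM). Hspd1 was at 523 CPM in normal 2 (413 to 422 CPM). Ccm2l was at 0.0949 CPM in normal 1, which is 1 count, and at 0 in the other normal litters.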

How the results depend on the processing

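Counts of genes past the threshold depended on the setting, and the cause was not tested. In K minus normal, where the main count is 0, there were 2 without a filter, 12 without K 3, K 4, BHB 1 and BHB 2, 1 with the marker score as a covariate, 296 by DESeq2 and 0 to 4 with 1 library left out (4 without BHB 1, 1 without normal 4). The replicate block gave 0 with all arms and 391 with only K and normal fitted; that paired fit was added after the values were seen. In BHB minus normal there were 2, 5, 0, 73 and 0 in the same order, and 1 with the endothelium covariate. In K minus BHB there were 36 without the 4 libraries, 1 with the marker score and 23 by DESeq2.

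Nupr1 stayed higher in K and in BHB than in normal under every setting run. K minus normal was 1.87 with the marker score and 1.60 with the endothelium list. BHB minus normal was 1.63 without the 4 libraries, 1.86 and 1.42 with these covariates, and 2.096 to 3.59 with 1 library left out. K minus BHB for Nupr1 ran from -0.25 to 1.25 with 1 library left out and was 0.50 with the replicate block. The median of the other genes in K minus normal was -0.11 with the marker score and -0.13 to 0.076 with 1 library left out.

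In K minus BHB, signs turned for Atf4 (-0.0084 with total counts; -0.038 to 0.12 with 1 library left out), Asns (-0.0039 to 0.22), Shmt2 (-0.17 to 0.071), Clpp (-0.013 to 0.13; -0.13 without the 4 libraries), Aldh1l2 (-0.17 without the 4) and Atf3 (-0.55 to 0.63; 0.83 without the 4; 0.083 with the replicate block). Trib3 and Chac1, with 3 to 10 counts per library, are limited by depth. Nupr1 rests on 2 to 6 counts in normal libraries, which limits the precision of its fold change.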

Other observations

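Nupr1l, the paralogue of Nupr1, did not follow it. It averaged 1.26 ± 0.21 CPM in K, 1.73 ± 0.43 CPM in BHB and 1.56 ± 0.33 CPM in normal litters (SD, n = 4 each), the arms overlap, and its K minus BHB difference was -0.49 ± 0.26 with edgeR adjusted p = 0.649. Nupr1l was looked at after the values of Nupr1 were seen.

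Slc7a11, the cystine carrier that pairs with Slc3a2 and is a target of ATF4, was named after its values were seen. It averaged 1.94 ± 0.61 CPM in K, 3.80 ± 3.60 CPM in BHB and 0.879 ± 0.382 CPM in normal litters, and the ranges of 1.16 to 2.59 CPM in K and 1.13 to 9.11 CPM in BHB overlap the normal range of 0.475 to 1.37 CPM. Cebpd, a partner factor that also responds to inflammation, averaged 11.6 ± 6.9 CPM in K, 11.9 ± 10.7 CPM in BHB and 4.33 ± 0.52 CPM in normal litters, and overlaps in both arms too. Fgf21, a hormone that ATF4 induces in liver, was at 0 in all BHB libraries and at most 0.119 CPM in the others.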
